A study of Mus musculus with 4 samples.

Results

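TBX5 peaks around 4 transcription factor genes of the limb mesenchyme, Msx1, Msx2, Alx4 and Twist1, were taken from a list of TBX5 binding sites in the embryonic mouse forelimb. A peak was a member when its summit, the position of its highest enrichment, lay on chromosome 5 from 37700000 to 38700000 (Msx1), chromosome 13 from 53100000 to 54000000 (Msx2), chromosome 2 from 93100000 to 93900000 (Alx4) or chromosome 12 from 34200000 to 35300000 (Twist1). These windows held 58 of the 11224 peaks listed, 7 for Msx1, 18 for Msx2, 14 for Alx4 and 19 for Twist1. The rule used position alone, within a list already limited by the authors for reproducibility. The windows themselves were chosen with earlier results of these data known.

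The list came from ChIP-seq, which sequences the chromatin pulled down by an antibody and so maps where a protein sat on DNA. Embryos were at embryonic day 10.5, wild type and of the outbred ICR stock, and whole forelimb buds were used, so the list does not separate the cell types of the bud. All of the 4 libraries shared this genotype and stage, 2 were precipitated with a polyclonal antibody against TBX5 and 2 were input, sheared chromatin sequenced without precipitation. All peaks belong jointly to both TBX5 ChIP libraries, with no value for a single replicate or for input, so no spread between replicates can be given for any value below, and no difference was tested.

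Each peak has a signal value, the strength given by the authors' peak caller, whose scale is not given in the sources used here. Each also has a score for reproducibility between the replicates. A score of 1000 is the highest, and the usual scaling sets it to an irreproducible discovery rate (IDR) of about 0.00391 or below. The lowest score in the list, 540, corresponds to the authors' limit of 0.05.

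TBX5 is a T-box transcription factor that is needed for the forelimb bud to form and that binds DNA through its T-box domain. MSX1 and MSX2 are closely related homeodomain proteins, induced by BMP signals, with overlapping roles in limb mesenchyme and ectoderm. ALX4 is a paired-type homeodomain protein of the anterior limb bud, and its loss in the mouse leads to extra digits on that side. TWIST1 is a basic helix-loop-helix protein of the mesenchyme, required for limb bud outgrowth, and regulatory elements that act on Twist1 are known from the neighbouring gene Hdac9, which encodes a histone deacetylase.

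Gene positions were approximate and came from the rule. Msx1 (near 38.2 Mb) and Alx4 (near 93.5 Mb) are given to within 50 kb, and Msx2 (near 53.56 Mb) and Twist1 (near 34.64 Mb) to within 5 kb, all on the earlier mouse build mm9. The labels name mm10. On 5 chromosomes, a total of 72 summits exceeded the end of every protein-coding gene in RefSeq's table of that assembly, GRCm38.p6. Summits can lie past the last gene on the right build too, so this count does not settle the build. On GRCm38.p6, Msx1, Msx2 and Alx4 would still lie inside their windows, 3 of the 4, and Twist1 would not. All distances and sides below take the list to be on mm9, as the rule does. No peak was therefore assigned to a promoter, exon, intron or UTR.

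By order of protein-coding genes in the same table, Msx1 lies between Cytl1 and Stx18, Msx2 between Gm38564 and Drd1, Alx4 between Cd82 and Ext2, and Twist1 between Ferd3l and Hdac9. RefSeq promoters (250 bases before to 50 after the start) were searched for AGGTGT, the core that T-box proteins recognise, on both strands. The table holds promoters of 3 of the 4 genes, Msx1, Msx2 and Twist1. Of these, only that of Twist1 held a match, a single one on the strand opposite to the gene, and 13.7% of the 32851 promoters of the table held at least 1 match. The stretch with the match is shown because a listed summit fell at the approximate position of Twist1. It is at chr12:33957653-33957682 on the forward strand of GRCm38.p6, and the capitals mark the match, at bases -6 to -1 before the start. These positions compare with those of the peaks only if the list is on the labelled build. In that case the listed summit at 33958712 (signal 25.4), below the Twist1 window, would be the one close to this stretch. The distances from Twist1 given below would then not hold.
Twist1 promoter: cccaactctcagACACCTcgcgggctcgcc
The match is a description of the sequence and not a measured site. The promoters of Msx1, Msx2, Msx3, Twist2 and both listed promoters of Hdac9 did not hold these letters in this window.

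Peaks were dense in 3 of the windows. The 58 members amounted to 15.3 peaks per Mb, against 4.41 per Mb over the whole list, with the span of listed summits on each of the 20 chromosomes as its length. The Msx2 window held 20 per Mb, the Alx4 window 17.5 and the Twist1 window 17.3. The Msx1 window held 7 per Mb, 1.59 times the value of the list. These values depend on where the windows end. Within 200 kb of the approximate gene positions, the density was 15 per Mb for Msx1, 17.5 for Msx2, 32.5 for Alx4 and 22.5 for Twist1.

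To set these counts beside the rest of the genome, all chromosomes were divided into consecutive windows of the same length as each member window. Of 2844 windows of 0.9 Mb, 2.29% held at least the 18 peaks of the Msx2 window. At least the 14 peaks of the Alx4 window were present in 3.69% of 3198 windows of 0.8 Mb, and at least the 19 of the Twist1 window in 3.01% of 2329 windows of 1.1 Mb. For Msx1 the share was 23.0% of 2562 windows of 1 Mb, so its count of 7 over the full window was far more common. It lay just above the upper quartile of those windows, 6 peaks. The median window held 3 peaks at 1, 0.9 and 1.1 Mb and 2 peaks at 0.8 Mb. The windows were chosen for their genes with earlier results of these data known, so these shares describe the counts and test nothing.

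**Figure D1:**
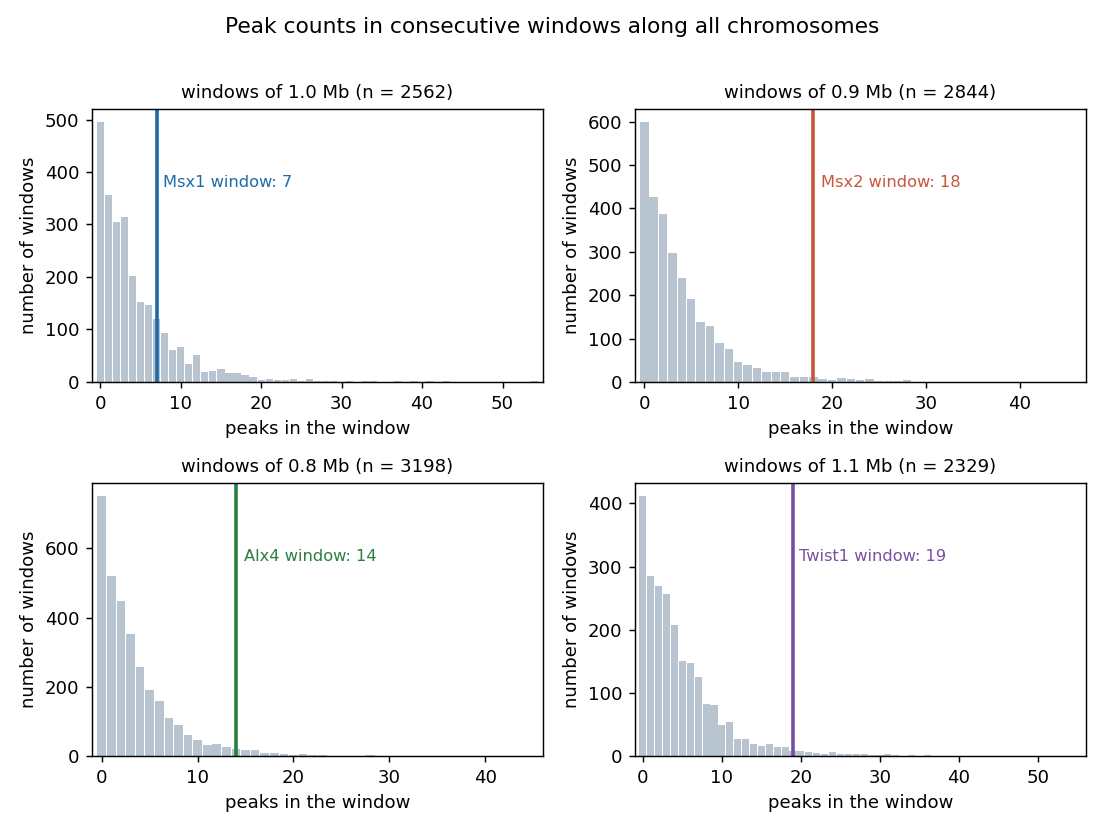
Histograms of the number of TBX5 peaks (x axis) in consecutive windows along all chromosomes (y axis, number of windows), 1 panel for each window length, with the count of the Msx1, Msx2, Alx4 or Twist1 window as a vertical line. The lines at 18, 14 and 19 peaks stand in the thin right tail, and the line at 7 peaks for Msx1 stands closer to the bulk.

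The strongest peaks of the 4 windows were of similar height. The highest signal values were 97.1 in the Msx2 window, 94.2 in the Twist1 window, 87.0 in the Alx4 window and 85.97 in the Msx1 window, which ranked 308, 342, 435 and 452 in the list. The median signal of all 58 members was 31.7, against 27.2 for the list. Msx1 (29.7) and Msx2 (28.5) had medians near that of the list, while those of Alx4 (35.6) and Twist1 (35.7) were about 1.3 times as high. All 4 medians lay between the quartiles of the list, 20.3 and 39.96. They depended on the window for Twist1. Within 200 kb of the approximate gene positions, the medians were 32.6 for Msx1, 27.7 for Msx2, 37.2 for Alx4 and 24.9 for Twist1. The Twist1 value was then below the 27.2 of the list.

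A signal among the strongest 10% of the list was reached by 10 members (17.2%). They were 4 of the 14 Alx4 peaks, 3 of the 19 Twist1 peaks, 2 of the 18 Msx2 peaks and 1 of the 7 Msx1 peaks. The highest score of 1000 was given to 32 members (55.2%), against 45.4% of the list, and an IDR of 0.01 or below to 42 members (72.4%), against 60%.

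**Figure D2:**
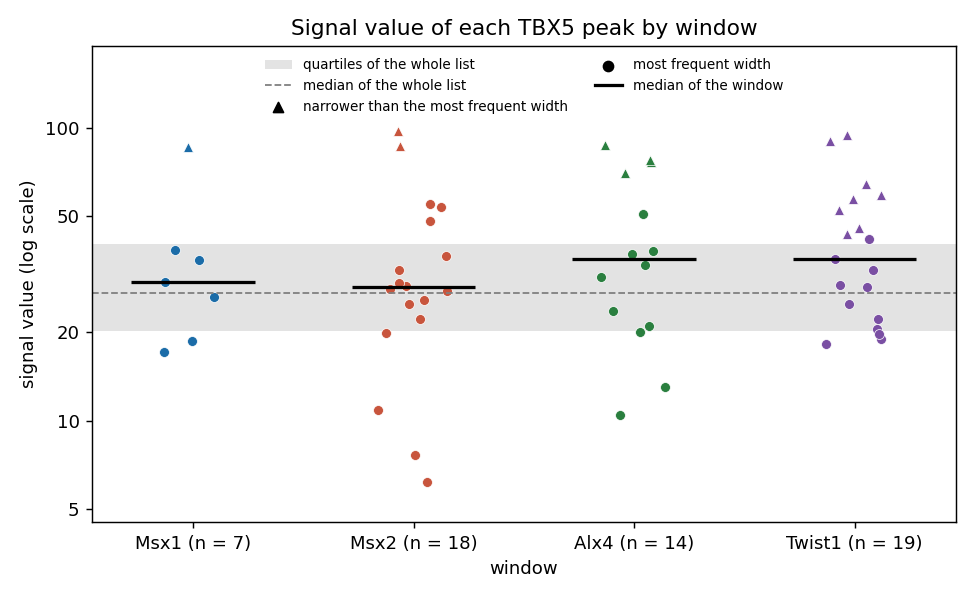
Signal value (y axis, log scale) of each TBX5 peak in the Msx1, Msx2, Alx4 and Twist1 windows (x axis), with the median of each window as a bar and the median and quartiles of the whole list in grey. Triangles mark peaks narrower than the most frequent width of 416 bp, and the highest peak of every window is a triangle between 85.97 and 97.1.

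Around Msx1, the lower part of the window held no peak. No summit was listed between the start of the window at 37700000 and 38217197, a stretch of 517.2 kb that includes the approximate gene position. The 7 summits followed from 38217198 to 38430472, and 4 of them lay more than 50 kb above the approximate gene position. The side of the other 3 cannot be told at the precision of that position. RefSeq places Msx1 on the reverse strand of GRCm38.p6. Where the orientation is the same in the build of the list, those 4 summits lie on the side before the start of the gene, towards Stx18.

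The strongest Msx1 peak stood apart from the other 6. It was at 38309245 to 38309462 on chromosome 5, with its summit at 38309365, a signal of 85.97 and a score of 1000. It was followed by peaks at 38217940 to 38218355 (signal 38.2) and at 38286727 to 38287142 (signal 35.4), both with a score of 1000. The strongest was thus more than 2 times as high as either, and it was the only one of the 7 narrower than the most frequent width.

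The other Msx1 summits were weaker. The summit nearest the approximate gene position, 38217198, had a signal of 17.1 and a score of 576, and it lay 950 bp from the second strongest. The remaining 3 had signals from 18.7 to 29.7 and scores from 637 to 905. A score below 830, an IDR above 0.01, was found in 3 of the 7, a share near that of the list (4491 of 11224). Under the stricter limit 4 peaks per Mb were left, against 2.65 per Mb in the list. Within 200 kb of the approximate position the density was 15 per Mb, because 6 of the 7 summits fell there.

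Around Msx2, most peaks lay at lower coordinates than the gene. Of 18 summits, 12 fell between 53259152 and 53416607, a stretch of 157.5 kb, and 6 lay above the approximate gene position. Between the end of that stretch and 53568355, 151.7 kb held no listed summit. RefSeq places Msx2 on the reverse strand of GRCm38.p6, so with the same orientation the 12 summits lie on the side beyond the end of the gene.

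The strongest Msx2 peaks were found on both sides. The first was at 53405166 to 53405413 on chromosome 13, with its summit at 53405288 about 150 kb below the approximate gene position, a signal of 97.1 and a score of 1000. The second, at 53850635 to 53850844, lay about 290 kb above, towards Drd1, with a signal of 86.8 and a score of 1000. The third, at 53322399 to 53322814, lay about 240 kb below with a signal of 54.7 and the same score. A peak of similar signal, 53.6, was the last of the window at 53903560.

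A single summit lay within 100 kb of Msx2. It was at 53568355, about 10 kb above the approximate position, with a signal of 29.5 and a score of 1000, and the nearest other summit was 111014 bp away. Its signal was close to the median of the list, so the gene's immediate surroundings held a reproducible peak of ordinary strength.

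The lower block contained the only group of 3 or more Msx2 summits that followed each other within 10 kb. This group had 4 summits from 53297151 to 53307522, with signals of 28.9, 7.64, 25.03 and 22.2 in order of position. Their scores were 1000, 1000, 928 and 772. The peak of 7.64 lay 200 bp from that of 28.9 and shared its score, which makes it the one member of the group whose score did not go with its strength. The 10 Msx2 peaks that were not among the 3 strongest, nearest the gene or in this group, the last peak of the window included, had signals from 6.197 to 53.6 and scores from 610 to 1000, with 3 at 1000.

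**Figure D3:**
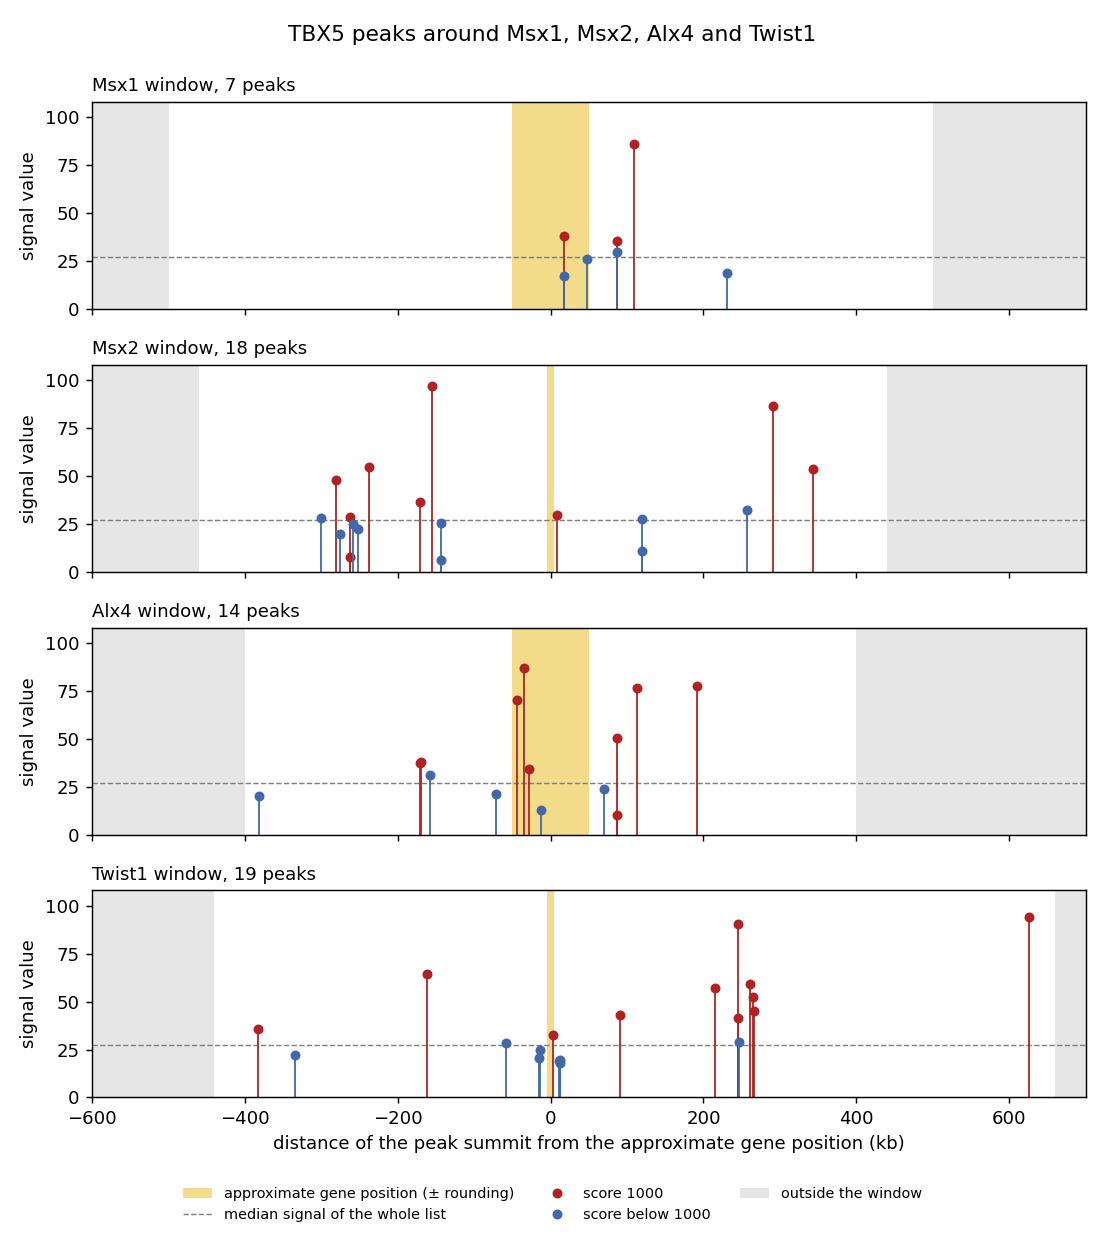
Signal value (y axis) of each TBX5 peak against the distance of its summit from the approximate gene position in kb (x axis, higher coordinates to the right), 1 panel each for the Msx1, Msx2, Alx4 and Twist1 windows. Red marks a score of 1000 and blue a lower score. Of the 7 Msx1 summits, 3 lie within the rounding of the position and 4 to its right, 12 of 18 Msx2 summits lie to the left, and the Twist1 summits form a low group at the gene and a higher group 200 to 300 kb to the right.

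The Alx4 window had the largest share of strong peaks of the 4, with 4 of 14 (28.6%) among the strongest 10% of the list. The first was at 93465263 to 93465501 on chromosome 2, with its summit at 93465386, a signal of 87.0 and a score of 1000. The next was at 93691476 to 93691736 and reached 77.4, followed by the third at 93612941 to 93613147 with 76.3. The last of the 4 reached a signal of 70.1, with its summit at 93456364. All 4 scored 1000, and they ranked 435, 629, 659 and 812 in the list.

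The first and the last of these belonged to the only group of 3 or more Alx4 summits. Its summits were at 93456364, 93465386 and 93471847, with signals of 70.1, 87.0 and 34.1, and each had a score of 1000. The group spanned 15.5 kb and lay within the 50 kb to which the position of the gene is given. The summit nearest the approximate position, 93486952, was much weaker, with a signal of 13.05 and a score of 591. Which of these 4 summits lie before, in or after the gene cannot be told at this precision.

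Outside that range, the Alx4 summits were spread over both sides. A pair at 93329288 and 93330859 had almost equal signals of 37.2 and 37.8, each with a score of 1000. The peaks with signals of 77.4 and 76.3 lay on the higher side, towards Ext2, the gene of a heparan sulfate polymerase. Of all 14 summits, 13 were within 200 kb of the approximate position, which gave 32.5 per Mb there, and the remaining one was at 93118511 with a signal of 20.1 and a score of 634. The 8 Alx4 peaks not described as strongest, nearest or grouped had signals from 10.4 to 50.7, and 4 of them scored 1000.

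Around Twist1, the peaks near the mm9 position of the gene were weaker than those farther away. This contrast was chosen after the values were seen and was not tested. The 7 summits within 60 kb of the approximate position had signals of 28.6, 20.6, 24.9, 32.7, 19.02, 18.2 and 19.7 in order of position. Their median was 20.6. The 12 beyond 60 kb had a median of 48.8, with a lowest value of 22.3 and a highest of 94.2, so the ranges overlapped, but 3 of the 12 and none of the 7 were among the strongest 10%. A score of 1000 was given to 10 of the 12 and to 1 of the 7.

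The summit nearest Twist1 was the strongest of the near group. It was at 34642547, in a peak from 34642339 to 34642754 on chromosome 12, less than 5 kb from the approximate position, with a signal of 32.7 and a score of 1000. It opened a group of 4 summits that ended at 34652398. The other summits of that group had signals of 19.02, 18.2 and 19.7 and scores of 562, 841 and 657. The peak at the gene was therefore the only one of the group with the highest score.

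A stretch of stronger peaks lay on the side of Hdac9. Between 34855703 and 34905568, 200 to 300 kb above the approximate position of Twist1, 7 summits had a median signal of 52.2, and 6 of them scored 1000. This stretch held both of the other groups of 3. The first, from 34884985 to 34886462, had signals of 90.3, 41.5 and 28.97 and scores of 1000, 1000 and 983. The second, from 34900679 to 34905568, had signals of 58.97, 52.2 and 45.3, all with a score of 1000. Hdac9 is the next protein-coding gene on this side, and whether these summits lie inside it was not determined.

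The strongest Twist1 peak was also the most distant. It was at 35266501 to 35266746, with its summit at 35266631 about 630 kb above the approximate position, a signal of 94.2 and a score of 1000, and 361.1 kb without a listed summit separated it from the rest. At that distance the rule does not tell which gene it is nearest to. The second, at 34884865 to 34885134, belonged to the group at the Hdac9 side. The third, at 34477930 to 34478074, lay about 160 kb below the position with a signal of 64.4 and a score of 1000. The 7 Twist1 peaks not described as strongest, nearest or grouped had signals from 20.6 to 56.9 and scores from 552 to 1000.

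Members occurred in groups. Another summit lay within 10 kb of 33 of the 58 members (56.9%), against 42.7% of the list. The share of the list is not matched for density, which was 15.3 peaks per Mb in the windows and 4.41 in the list. Whether the members were more grouped than their density gives was not tested. There were 5 groups of 3 or more, 3 of them in the Twist1 window, 1 each in the Msx2 and Alx4 windows and none in the Msx1 window. These groups held 17 members, pairs held 16, and 25 members had no other member within 10 kb.

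Some of this grouping came from summits listed very close together. Within 500 bp, 7 pairs of members were listed, 200 to 265 bp apart, and the weaker peak of a pair had between 0.206 and 0.924 times the signal of the stronger. A stronger summit within 500 bp was thus present for 7 members (12.1%), near the 10.1% of the list. Joining overlapping intervals reduced the 58 peaks to 51 sites, of which 43.1% had another within 10 kb, against 28.97% of the sites of the list.

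The weakest members were such close neighbours. A q-value, the peak caller's significance after correction, of 0.05 or below was given to 55 members (94.8%), against 93.9% of the list. The 3 others were the weaker peaks of pairs, 2 around Msx2 with signals of 7.64 and 6.197 and q-values of 0.392 and 0.654, and 1 around Alx4 with a signal of 10.4 and a q-value of 0.0677. Their scores were 1000, 930 and 1000, equal to those of their stronger neighbours.

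**Figure D4:**
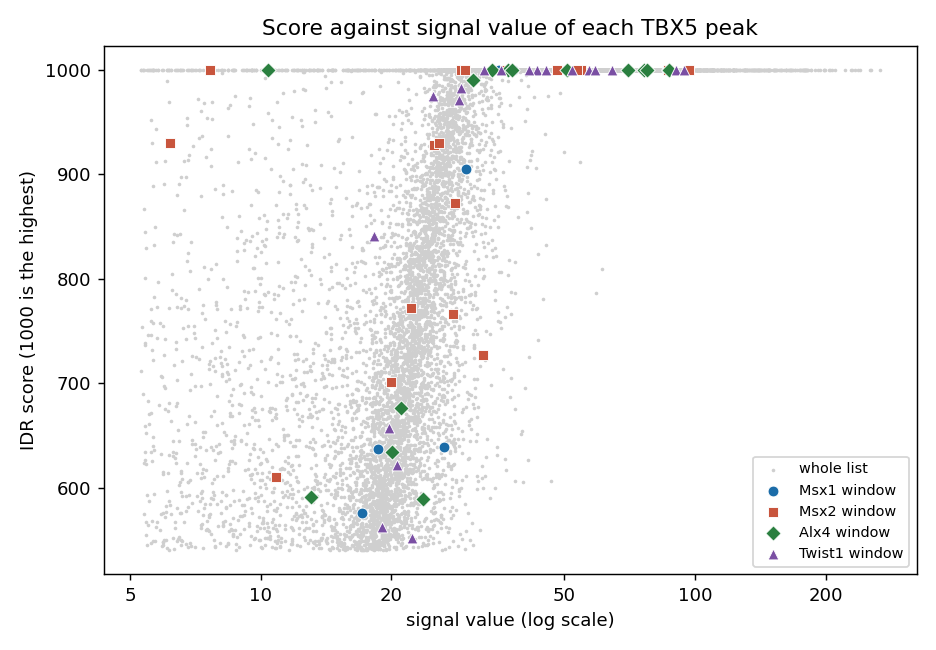
IDR score (y axis) against signal value (x axis, log scale) of each TBX5 peak, with the whole list in grey and the Msx1, Msx2, Alx4 and Twist1 members in colour. Members above a signal of 32.6 all lie at 1000, and the 3 members with q-values above 0.05 are at the left with scores of 930 or 1000.

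Score and width went with signal among the members. The 26 members with a score below 1000 had signals of at most 32.6, and those with a score of 1000 had a median of 49.4. A width below the most frequent 416 bp was found in 15 members (25.9%), against 15.4% of the list, and all 15 scored 1000. Their signals ran from 43.3 to 97.1, with a median of 76.3. The 43 members of the most frequent width had a median of 27.7, and none of them was among the strongest 10%. The list showed the same pattern, with 1699 of its 1728 narrower peaks at a score of 1000, medians of 66.6 and 24.8 for the narrower and the most frequent width, and 46 of 9459 peaks of that width among the strongest 10%. Of the 15 narrow peaks, 8 were in the Twist1 window, where 5 of them lay in the stretch on the side of Hdac9.

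The limits of the windows cut through no group of summits. Below the Msx1 window the nearest listed summit was 971.9 kb away, with a signal of 44.98, and above it 80.01 kb away, with a signal of 32.7. For Msx2 these summits were 28.4 and 88.6 kb outside, with signals of 40.3 and 76.0. Each was more than 10 kb from its limit, as was every first and last summit inside. For Alx4 they were 22.5 and 851.9 kb outside (signals of 23.1 and 61.2), and for Twist1 241.3 and 22.2 kb (signals of 25.4 and 44.9). The summits just inside had signals of 17.1 and 18.7 for Msx1, 28.1 and 53.6 for Msx2, 20.1 and 77.4 for Alx4, and 35.7 and 94.2 for Twist1.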

How the data were processed

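One peak list of the TBX5 ChIP group was used. The score, the signal and the −log10 q-value of each peak are as deposited by the authors. An IDR limit of 0.05 is given in the authors' name for the list. The build mm10 and FastQC are named in the submitters' processing notes, and the aligner, the peak caller, its filters and any pooling of reads are not given in the sources used here. These steps set the membership of the list and the height of each signal. Read depth is unknown, so no counting interval was attached to a signal.

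Positions were converted to count from 1. Members were chosen by summit, and shares are given beside those of all 11224 peaks. The peaks named are the 3 strongest of each window, the one nearest the gene and every group of 3 or more summits within 10 kb of the next, with others named after their values were seen. Members, lists and windows were chosen with earlier results of these data known. Python 3.11.15, NumPy 2.4.6, pandas 2.3.3, SciPy 1.17.1 and matplotlib 3.10.9 were used. The counting steps were tested on simulated data. Alternatives were a stricter IDR, joined intervals, peaks near a stronger summit left out, a narrower window and other distances. Input libraries and single replicates were not analysed here.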

Additional observations from a re-analysis of the deposited data

How the results depend on the processing

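Of 41 alternative values for 9 results, 34 stayed within a set range and 7 did not. The range was 1.5 times the density given, or the 95% binomial interval of the median or share. These intervals treat peaks as independent, which they are not. For the Msx1 median the interval was 17.1 to 85.97, its lowest and highest peak, so no alternative could leave it. For the Twist1 median it was 22.3 to 56.9, which still contained the fall from 35.7 to 24.9 within 200 kb. For peaks per Mb, the Msx1 window changed from 7 to 4 at an IDR of 0.01 or below and to 15 within 200 kb of the approximate gene position, and the Alx4 window from 17.5 to 32.5 within 200 kb. The share of members with another summit within 10 kb was 56.9%. It was 43.1% both after joining intervals and without peaks near a stronger summit, settings that remove close pairs. The list then had 28.97% and 28.5%. Both settings gave the same values for each of the 9 results, so they are not separate checks among the 41. With 2000 bp as the distance the share was 41.4% (list 28.9%), and with 50000 bp 87.9% (list 66.8%). Leaving out each window in turn, added after the data were seen, gave 53.8% to 59.1%. No paired analysis was possible because the deposited peaks carry no replicate numbers, and no replicate could be left out. Without read depth, the list cannot show which sites were missed.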
